A study of Mus musculus with 12 samples.

Results

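Imprinted genes are described here in fetal germ cells and in the somatic cells around them. The list holds 39 mouse genes named by symbol, from 18 loci, and was taken as every such symbol with a row in both deposited expression tables. Of the 39, 37 genes from 17 loci had a row, out of 12845 genes in the tables. Snrpn and Nap1l5 were not analysed here. By background knowledge 19 of the 37 are expressed from the paternal chromosome, 10 from the maternal one, and 8 differ in parental expression between tissues or isoforms (Gnas, Grb10, Ube3a, Ppp1r9a, Copg2, Blcap, Commd1 and Inpp5f). The tables hold no information on alleles, so this class is a label and not a measurement.

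An imprinted gene is expressed mainly from the copy inherited from one parent, and the copy is marked by DNA methylation laid down in that parent's germ line. Imprinted genes lie in clusters that hold protein-coding genes, which often act on fetal or placental growth, beside long noncoding RNAs that silence or mark the cluster. In primordial germ cells (PGC) the methylation inherited from both parents is erased as the cells settle in the gonad, before new imprints are laid down according to the sex of the embryo, and both copies can then be transcribed.

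RNA sequencing was done on 12 libraries from mouse embryonic gonads at E13.5, counted in days of gestation. PGC and soma of each sex gave 3 libraries each. The embryos came from females mated to males with an Oct4GFP transgene, a green reporter under control of the germ cell gene Oct4, and the strain is given as Oct4GFPxICR for all 4 groups. Germ cells were the GFP-positive sorted cells and soma the GFP-negative sorted cells of the same kind of gonad, with no treatment in any group. The soma is therefore a mixture of all gonadal cells without the reporter, which can include Sertoli or pregranulosa, Leydig, stromal, endothelial and blood cells. Nothing in the labels says that the 3 libraries of a group come from separate litters or animals, so p-values measure the spread between these samples, which may be technical. In bulk samples like these, fewer cells of a type and less RNA per cell cannot be told apart.

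Libraries held 6454322 to 24791414 reads in the tables, recovered as whole numbers from the deposited values. The labels matched the germ cell markers Pou5f1, Ddx4 and Dazl: Ddx4, a germ line RNA helicase, was at 772, 628 and 749.8 CPM (counts for each 1000000 reads of the library) in male PGC and 916, 797 and 827 in female PGC. In male soma Ddx4 was at 2.62, 2.58 and 4.08 CPM, and in female soma at 24, 35.6 and 2.16, so female soma libraries 1 and 2 carried more germ cell RNA than library 3. The stromal collagen gene Col1a1, the embryonic globin gene Hbb-y and the somatic regulator Wt1 were all higher in soma of both sexes than in PGC. The Y-linked gene Ddx3y had no read in the 3 female PGC libraries and was at 0.111, 5.06 and 0.254 CPM in female soma, against 85.2, 107 and 95.4 in male soma. Female soma library 2 was thus the highest female library in Ddx3y. Whether it holds male RNA, and the part of this in comparisons with male soma, was not tested. Xist, the noncoding RNA of the inactive X, was at 2038, 1919 and 2162 CPM in female soma and at 3.13, 15 and 1.43 in female PGC.

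Promoter windows were available in RefSeq (GRCm38.p6) for 30 of the 37 genes, 44 windows in all, of which the 250 bases before the start site were searched. The hexamer TGCCGC, which the imprint-keeping zinc finger protein ZFP57 binds when its CpG is methylated, occurred on either strand in 6 of these 44 windows (13.6%), against 8.68% of 32851 windows of all genes. A pair of these are overlapping Mest windows with the same 2 matches. With overlapping windows of a gene counted once, the hexamer was in 5 of 42 (11.9%), against 8.76% of 30894. The hexamer holds a CpG, and the median was 11.5 CpG in the 44 windows and 6 in the 32851. The part of this in the shares was not tested. The motif AANATGGCG, bound by YY1, occurred in 1 of 44 (2.27%), against 368 of the 32851. A match describes letters and is no binding site. The stretches shown come from the window of each gene with the most TGCCGC matches, so their matches are not typical of all windows. Another Mest window (chr6:30733256-30733505) and another Meg3 window (chr12:109545148-109545397) held 0 matches. The 3 stretches are free of annotated exons and lie beside genes that carry the results below. They belong to Mest, whose level differed most between PGC of both sexes among the paternal genes that were lower in female PGC, Meg3, the noncoding RNA of the Dlk1 cluster, and the interval shared by the divergent genes Peg3 and Usp29. Capitals mark TGCCGC or its reverse complement, and each stretch is written 5′ to 3′ on the plus strand.
Mest, chr6:30737800-30738049 (GRCm38.p6, plus strand): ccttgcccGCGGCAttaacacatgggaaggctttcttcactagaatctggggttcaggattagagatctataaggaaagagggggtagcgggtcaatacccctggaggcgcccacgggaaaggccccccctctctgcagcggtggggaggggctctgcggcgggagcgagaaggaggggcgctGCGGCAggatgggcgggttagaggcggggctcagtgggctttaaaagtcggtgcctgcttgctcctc
Meg3, chr12:109540746-109540995 (GRCm38.p6, plus strand): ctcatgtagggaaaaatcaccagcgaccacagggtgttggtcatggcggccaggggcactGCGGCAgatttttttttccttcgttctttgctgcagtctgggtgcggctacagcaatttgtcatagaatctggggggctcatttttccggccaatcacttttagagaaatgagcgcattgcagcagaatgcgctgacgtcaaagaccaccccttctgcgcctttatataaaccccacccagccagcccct
Peg3-Usp29 interval, chr7:6730432-6730577 (GRCm38.p6, plus strand): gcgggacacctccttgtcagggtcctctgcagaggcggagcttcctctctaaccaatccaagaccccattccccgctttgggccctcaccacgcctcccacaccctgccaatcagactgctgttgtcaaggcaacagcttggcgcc
The Mest stretch holds 2 matches and 14 CpG, the Meg3 stretch 1 match and 10 CpG, and the Peg3-Usp29 interval no match and 5 CpG. Peg3 and Usp29 start 147 bases apart and point away from each other, as do Peg10 and Sgce, whose starts are 99 bases apart.

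At equal read depth, most imprinted genes were lower in germ cells than in soma in both sexes. In the table normalized to read depth, 27 of 37 genes were lower in male PGC than in male soma and 9 were higher, tested with limma at an adjusted p (Benjamini-Hochberg over all genes) under 0.05. Of all 12845 genes, 43.7% were called lower and 39.1% higher in this comparison. In females 28 of 37 genes were lower in PGC and 7 higher, against 42.3% and 38.7% of all genes. The median log2 fold change of the 37 genes was -2.03 in males and -1.77 in females, where the median of all genes was -0.0606 and -0.0494. These fold changes are on the authors' read depth scale, which is compressed at low levels, so folds of CPM are given beside them. Centring each library on its median moved the median of all genes to 0.185 in males and 0.154 in females and the split of all calls from 5026 higher and 5607 lower to 6138 and 4624 in males, and from 4968 and 5439 to 5965 and 4567 in females. Under that centring 27 imprinted genes were lower in male PGC and 26 in female PGC.

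**Figure D1:**
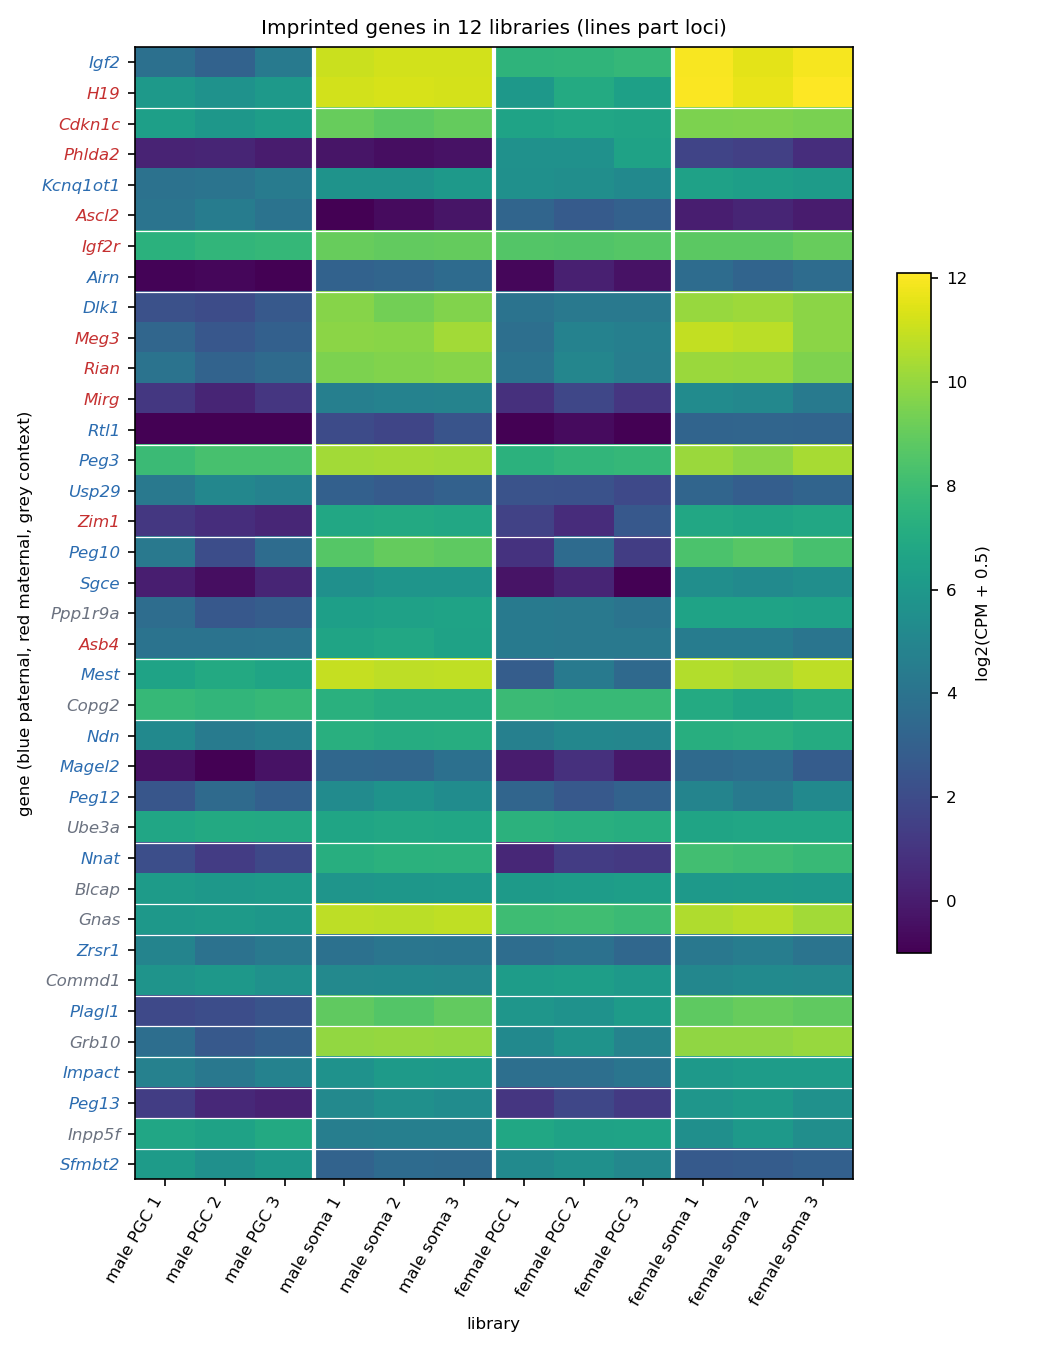
Level of each of the 37 imprinted genes (lines) in each of the 12 libraries (columns), as log2 of CPM plus 0.5, with colour from dark (low) to yellow (high). Most genes of the Igf2, Dlk1, Peg3, Peg10, Mest, Nnat, Plagl1 and Grb10 loci are darker in the 6 PGC libraries than in the 6 soma libraries, while Ascl2, Inpp5f and Sfmbt2 are brighter in PGC.

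The 37 genes took up a small share of germ cell RNA. They summed to 0.159% to 0.170% of reads in male PGC and 1.60% to 1.68% in male soma. In female PGC the share was 0.221% to 0.237%, and in female soma 1.86% to 2.06%. No PGC library overlapped a soma library in this share. Without Igf2 and H19 the share was 0.152% to 0.162% in male PGC against 1.13% to 1.20% in male soma, and 0.197% to 0.205% against 1.13% to 1.25% in females.

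By parental class, 16 of the 19 paternally expressed genes were lower in male PGC and 2 higher, and 18 were lower and 1 higher in female PGC. Of the 10 maternally expressed genes, 8 were lower and 2 higher in male PGC, and 7 lower and 2 higher in female PGC. The 8 genes with tissue-dependent imprinting were 3 lower and 5 higher in male PGC and 3 lower and 4 higher in female PGC. Among all genes 43.7% were lower and 39.1% higher in male PGC, and 42.3% and 38.7% in female PGC. No test of the classes against each other was made. Across the sexes, 26 genes were lower in both, which is 26 of the 27 lower in males and 26 of the 28 lower in females. Of all genes 33.5% were lower in both sexes. The 7 genes higher in both sexes, against 28.9% of all genes, were Ascl2, Commd1, Copg2, Inpp5f, Phlda2, Sfmbt2 and Ube3a.

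**Figure D2:**
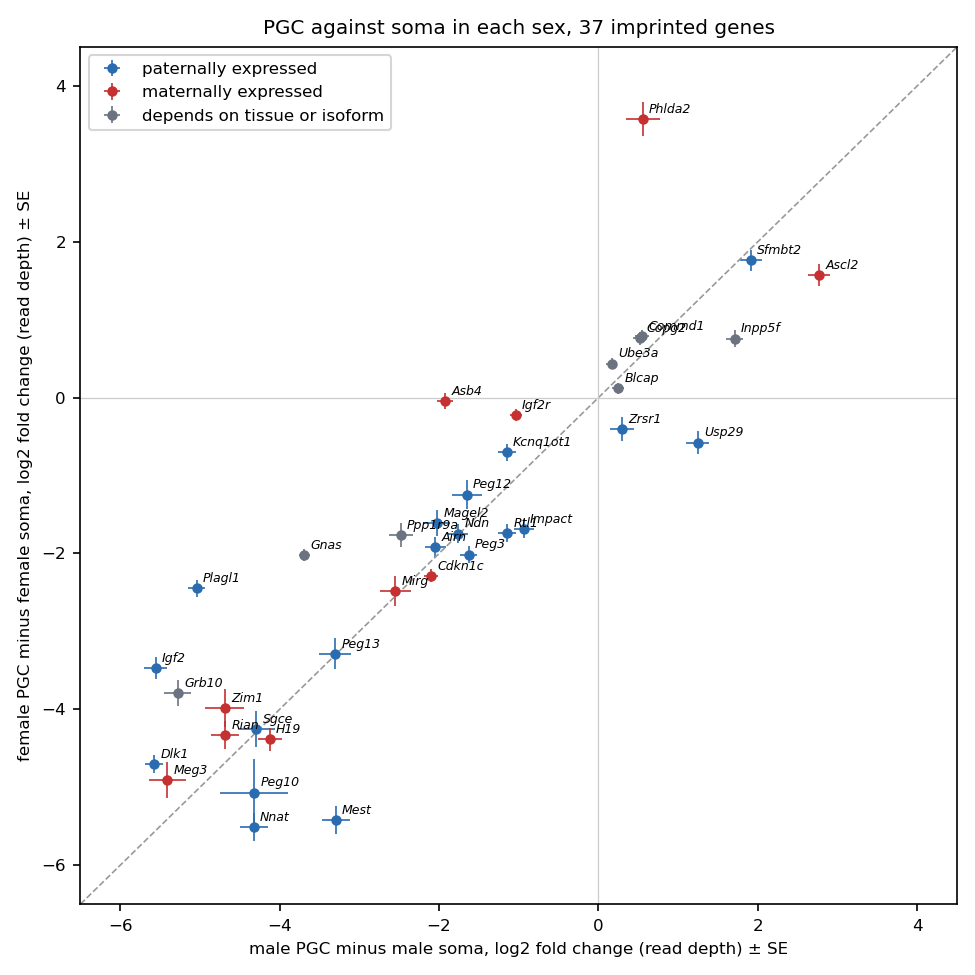
Log2 fold change of PGC against soma on the read depth scale in males (x axis) and females (y axis) for the 37 imprinted genes, with bars of 1 standard error and colour by parental class; the dashed line marks equal change. Plagl1, Igf2 and Gnas sit above the line, Mest, Nnat and Usp29 below it, and Phlda2 stands alone at 0.56 in males and 3.58 in females.

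Igf2 and H19, neighbours on chromosome 7 with opposite parental expression, were both far lower in PGC. Igf2 (chr7:142650766-142666816), a fetal growth factor expressed from the paternal copy, was at 13.7, 8.29 and 19.6 CPM in male PGC and 180.0, 188 and 212 in female PGC. Soma held 2078, 2326 and 2310 in males and 3997, 3030 and 3840 in females. All 6 PGC libraries lay below all 6 soma libraries, and the 3 female PGC libraries lay above the 3 male ones. The level in male PGC was 161-fold below male soma (log2 fold change -5.56 ± 0.15 (SE), limma adjusted p = 1.08e-12) and in female PGC 18.8-fold below female soma (-3.47 ± 0.15, adjusted p = 1.08e-10). The difference between the sexes in this fold was 2.09 ± 0.21 (adjusted p = 2.27e-06), and Igf2 was 13.9-fold higher in female than in male PGC. H19, the maternally expressed noncoding RNA that shares its enhancers and lies downstream (chr7:142575529-142578143), was at 67.8, 50.4 and 66 CPM in male PGC and 62.6, 126 and 86.9 in female PGC. Soma libraries were at 2312, 2547 and 2432 in males and 4105, 3224 and 4357 in females. H19 was also lower in PGC, by 39.6-fold in males (-4.12 ± 0.15) and 42.5-fold in females (-4.39 ± 0.15), but for it the groups of male and female PGC overlapped and the difference between sexes in fold was -0.26 ± 0.22 (adjusted p = 0.317).

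The receptor that removes IGF2 changed less. Igf2r (chr17:12682406-12769664), the maternally expressed receptor that carries IGF2 to the lysosome, was at 162, 193 and 212 CPM in male PGC and 379, 373 and 403 in female PGC. In soma it was at 519.8, 494 and 501 in males and 449.8, 438 and 521 in females. It was 2.67-fold lower in male PGC (-1.04 ± 0.08, adjusted p = 1.33e-08) and 1.22-fold lower in female PGC (-0.23 ± 0.08, adjusted p = 0.0133), and the female call was lost without female soma library 3 (adjusted p = 0.0696) and with median centring (-0.02, adjusted p = 0.782). Airn, the paternally expressed antisense RNA that silences the paternal Igf2r, had 1, 2 and 0 reads in male PGC and 2, 4 and 3 in female PGC, against 75, 225 and 209 in male soma and 105, 57 and 93 in female soma. Airn overlaps Igf2r on the opposite strand, and the use of strand in counting is a setting not given in the sources used here.

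Grb10 (chr11:11930508-12038683), an adaptor that dampens insulin and IGF receptor signalling, was at 12.9, 5.91 and 7.68 CPM in male PGC and 36.5, 52.4 and 28.8 in female PGC. The soma levels were 1018, 1027 and 1017 in males and 955, 969 and 1063 in females. It fell by 116-fold in male PGC (-5.28 ± 0.17, adjusted p = 4.8e-12) and by 25.4-fold in female PGC (-3.79 ± 0.17, adjusted p = 1.67e-10), with no overlap between any PGC and any soma library. Plagl1 (chr10:13060504-13131694), a paternally expressed zinc finger transcription factor, was at 3.25, 3.81 and 4.74 CPM in male PGC and 57.8, 50.8 and 73.2 in female PGC. Soma held 467, 383 and 485 in males and 459, 521 and 476 in females. The 3 male PGC libraries were the lowest, the 3 female PGC libraries were intermediate, and the soma of both sexes overlapped. Plagl1 was 113-fold lower in male PGC (-5.04 ± 0.11, adjusted p = 2.67e-13) and 8.01-fold lower in female PGC (-2.45 ± 0.11, adjusted p = 1.56e-10).

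**Figure D3:**
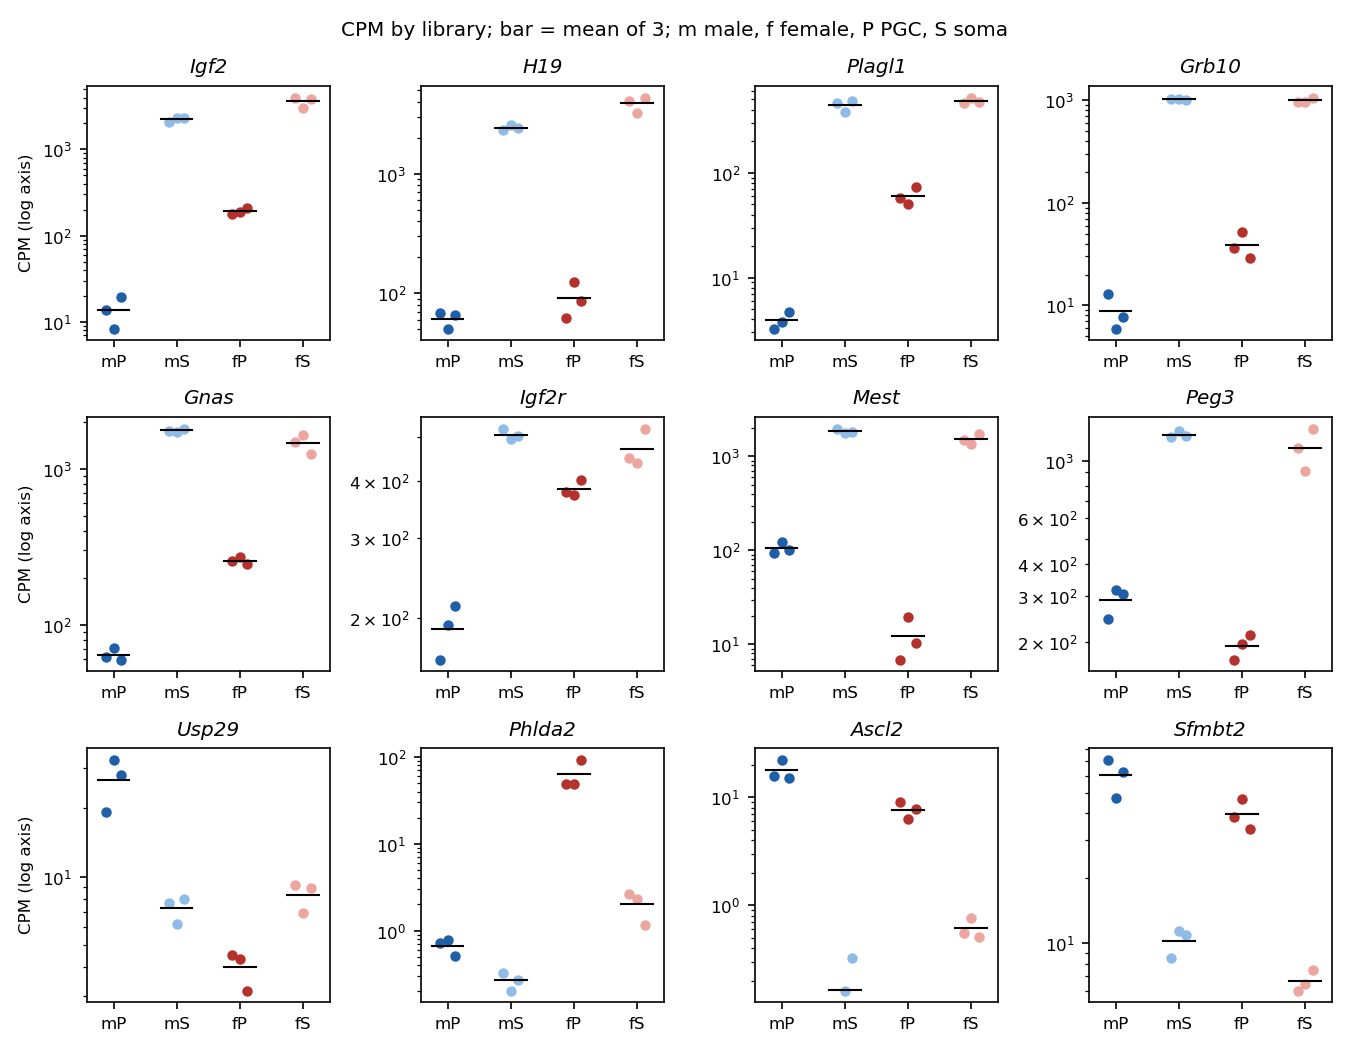
CPM of 12 imprinted genes in each library on log axes, as points by group (m male, f female, P PGC, S soma), with a bar at the mean of 3 libraries. Igf2, Plagl1, Grb10 and Gnas are lowest in male PGC, Mest and Usp29 are lowest in female PGC, and Phlda2 is highest in female PGC; male soma library 1 has no Ascl2 read and is not drawn.

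All 5 listed genes of the Dlk1-Meg3 cluster on chromosome 12 were lower in PGC of both sexes. Dlk1 (chr12:109452823-109463336), a paternally expressed transmembrane protein of the Notch ligand family, was at 4.25, 3.65 and 5.87 CPM in male PGC and 15.6, 18.8 and 18.8 in female PGC. Soma libraries were at 826, 640.2 and 777 in males and 1056, 1158 and 890.5 in females. Meg3 (chr12:109541001-109571726), the maternally expressed long noncoding RNA, was at 9.66, 5.41 and 7.45 CPM in male PGC and 13.4, 27 and 24.2 in female PGC. In soma it was at 899.9, 874 and 1235 in males and 1924, 1684 and 899.9 in females. For both genes every PGC library lay below every soma library. Dlk1 was 163-fold lower in male PGC (-5.58 ± 0.12, adjusted p = 2.07e-13) and 58.4-fold lower in female PGC (-4.71 ± 0.12, adjusted p = 6.21e-12). Meg3 was 134-fold lower in male PGC (-5.41 ± 0.23, adjusted p = 5.75e-11) and 69.8-fold lower in female PGC (-4.91 ± 0.23, adjusted p = 2.58e-10). In female soma, library 3 had the lowest Meg3, and it also had the fewest germ cell marker reads. Meg3 itself was low in PGC, and a link between these values was not tested.

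The other listed RNAs of the cluster followed. Rian, host of small nucleolar RNAs, was at 15.5, 8.45 and 11.1 CPM in male PGC and 15.3, 31.1 and 24.1 in female PGC. The soma levels were 714, 785 and 847 in males and 1115, 1068 and 761 in females. Mirg, host of microRNAs, was at 1.67, 0.779 and 1.58 CPM in male PGC and 1.25, 2.94 and 1.62 in female PGC. Soma held 24.4, 27.6 and 28.6 in males and 39.3, 33.8 and 20.7 in females. Rian changed by -4.69 ± 0.18 in males and -4.33 ± 0.18 in females, and Mirg by -2.55 ± 0.19 and -2.48 ± 0.19, all called, with no overlap between PGC and soma. Rtl1, a paternally expressed retrotransposon-derived gene, had no read in any male PGC library and 0, 1 and 0 reads in female PGC, against 32, 69 and 87 in male soma and 78, 60 and 69 in female soma. With a floor of 3 reads over the group, Rtl1 was at least 77.1-fold lower in male PGC than in male soma. The difference between sexes in this step (-0.59 ± 0.16, adjusted p = 0.00697) was -0.08 (adjusted p = 0.959) in a limma voom fit of the recovered reads, -0.36 (0.0891) under quantile normalization and 0.89 ± 1.69 (adjusted p = 0.68) per cell, with PGC of both sexes at or near 0 reads and soma 0.63 ± 0.12 higher in females.

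In the Kcnq1 domain on chromosome 7 the genes went different ways. Cdkn1c (chr7:143458339-143461050), a maternally expressed inhibitor of cyclin-dependent kinases, was at 82.8, 59.6 and 76.6 CPM in male PGC and 95.4, 108 and 100.4 in female PGC. Soma libraries were at 533, 449.6 and 507 in males and 731, 760.2 and 702 in females. It was 6.8-fold lower in male PGC (-2.10 ± 0.08, adjusted p = 3.24e-11) and 7.22-fold lower in female PGC (-2.29 ± 0.08, adjusted p = 3.78e-11). Kcnq1ot1, the paternally expressed noncoding RNA that silences the domain, was at 14.7, 15.9 and 21.5 CPM in male PGC and 46.7, 44 and 36.4 in female PGC. In soma it was at 51.7, 51.8 and 64.7 in males and 89.1, 79.8 and 72.5 in females. Its log2 fold change in PGC against soma was -1.15 ± 0.11 in males and -0.70 ± 0.11 in females, and it lies within Kcnq1 on the opposite strand.

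Phlda2 (chr7:143501545-143503150), a maternally expressed protein with a pleckstrin homology domain that limits placental growth, was at 0.717, 0.779 and 0.508 CPM in male PGC and 49.3, 48.6 and 93.5 in female PGC. The soma levels were 0.328, 0.202 and 0.272 in males and 2.67, 2.3 and 1.14 in females. The 3 female PGC libraries stood far above the other 9, and the counts behind the low groups were small, with 15, 19 and 9 reads in male PGC and 3, 5 and 5 in male soma. In females Phlda2 was 31.3-fold higher in PGC than in soma (3.58 ± 0.22, adjusted p = 2.43e-09). In males the difference was 0.56 ± 0.22 (adjusted p = 0.0274) and was lost without male PGC library 1 (adjusted p = 0.0676) or 2 (0.0771), without male soma library 2 (0.0886) or 3 (0.0602), and in a limma voom fit of the recovered reads (0.313). The female soma libraries 1 to 3 held germ cell markers at 112%, 166.9% and 21.0% of their group's mean, and the part of these in their Phlda2 level was not tested.

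Ascl2 (chr7:142966829-142969264), a maternally expressed transcription factor needed in the placenta, was at 15.8, 22.4 and 15.1 CPM in male PGC and 9, 6.35 and 7.74 in female PGC. Soma held 0, 0.161 and 0.326 in males and 0.556, 0.767 and 0.509 in females. It was 109-fold higher in male PGC than in male soma (2.77 ± 0.14, adjusted p = 2.84e-10), where soma held 0, 4 and 6 reads and the fold was 220.4 without male soma library 3, and 12.6-fold higher in female PGC (1.57 ± 0.14, adjusted p = 1.22e-07). Ascl2 was the imprinted gene with the largest increase in male PGC, and Phlda2 the one with the largest in female PGC, on the read depth scale.

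The 3 listed genes of the Peg3 cluster went different ways. Peg3 (chr7:6703892-6730431), a paternally expressed zinc finger protein, was at 244, 316 and 307 CPM in male PGC and 170.1, 196 and 212 in female PGC. Soma libraries were at 1236, 1300 and 1245 in males and 1119, 914 and 1329 in females. It was lower in PGC by 4.37-fold in males (-1.63 ± 0.11, adjusted p = 4.15e-09) and 5.81-fold in females (-2.02 ± 0.11, adjusted p = 7.43e-10). Usp29 (chr7:6730578-6967219), a ubiquitin peptidase gene that starts beside Peg3 and is also paternally expressed, was at 19.2, 32.6 and 27.8 CPM in male PGC and 4.52, 4.34 and 3.15 in female PGC. In soma it was at 7.65, 6.21 and 7.99 in males and 9.22, 6.9 and 8.9 in females. The 3 male PGC libraries were the highest of the 12 and the 3 female PGC libraries the lowest. Usp29 was 3.64-fold higher in male PGC than in male soma (1.25 ± 0.15, adjusted p = 2.04e-06) and 2.08-fold lower in female PGC than in female soma (-0.58 ± 0.15, adjusted p = 0.00235), and the female value turned to 0.12 (adjusted p = 0.496) under quantile normalization and missed the threshold in the voom fit (adjusted p = 0.0509). Zim1, a maternally expressed zinc finger gene, was at 1.67, 1.15 and 0.847 CPM in male PGC and 2.51, 1.08 and 5.64 in female PGC, against soma at 117, 125 and 115 in males and 116, 98 and 116 in females, which is -4.69 ± 0.25 in males and -3.98 ± 0.25 in females, both called.

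The Peg10-Sgce cluster on chromosome 6 was low in PGC at its divergent pair. Peg10 (chr6:4747306-4760517), a retrotransposon-derived gene needed in the placenta, was at 18.8, 3.77 and 11.7 CPM in male PGC and 1.39, 11.3 and 2.1 in female PGC. The soma levels were 401, 511 and 453 in males and 329, 413 and 314 in females. The libraries of each PGC group differed several-fold among themselves, and female PGC library 2 and male PGC library 1 were the highest of their groups. Peg10 was 39.9-fold lower in male PGC (-4.32 ± 0.43, adjusted p = 3.25e-07) and 71.3-fold lower in female PGC (-5.07 ± 0.43, adjusted p = 7.22e-08). Without female PGC library 2 the female fold was 201.5. Sgce, which codes for epsilon-sarcoglycan, was at 0.574, 0.205 and 0.79 CPM in male PGC and 0.313, 0.775 and 0 in female PGC, against soma at 47.3, 55.8 and 55.2 in males and 44.3, 37.6 and 44.5 in females, a difference of -4.29 ± 0.23 in males and -4.25 ± 0.23 in females.

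Ppp1r9a, which codes for the actin-binding protein neurabin, was at 12.5, 5.62 and 6.72 CPM in male PGC and 19.8, 19.4 and 16 in female PGC, against soma at 82.3, 88.9 and 96.8 in males and 95.9, 94.7 and 88.2 in females, and was called lower in both sexes (-2.48 ± 0.15 and -1.76 ± 0.15). Asb4, a maternally expressed gene with ankyrin repeats and a SOCS box, was at 15.2, 15.2 and 16.1 CPM in male PGC and 20.01, 18.8 and 18.9 in female PGC. Soma held 98.3, 113 and 91.8 in males and 21.9, 22.1 and 16.7 in females. Male soma stood apart with the 3 highest libraries. Asb4 was 6.53-fold lower in male PGC (-1.93 ± 0.10, adjusted p = 3.25e-10), while in females the groups overlapped (-0.04 ± 0.10, adjusted p = 0.687).

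Mest was lowest in female PGC, and the Nnat levels of male and female PGC libraries overlapped. Mest (chr6:30723547-30748465), a paternally expressed gene of the hydrolase-fold family whose promoter stretch is printed above, was at 94.5, 122 and 100.2 CPM in male PGC and 6.85, 19.7 and 10.4 in female PGC. Soma libraries were at 1977, 1787 and 1824 in males and 1512, 1362 and 1742 in females. Male PGC lay between female PGC and soma with no overlap. Mest was 17.6-fold lower in male PGC (-3.29 ± 0.18, adjusted p = 5.84e-10) and 125-fold lower in female PGC (-5.42 ± 0.18, adjusted p = 1.97e-11). Copg2, a coatomer subunit gene that overlaps the end of Mest on the opposite strand, was at 215, 194 and 214 CPM in male PGC and 244, 227 and 227 in female PGC, against soma at 156, 137 and 137 in males and 126, 100.2 and 132 in females and was higher in PGC of both sexes (0.52 ± 0.08 and 0.76 ± 0.08).

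Nnat (chr2:157560078-157562522), a paternally expressed small membrane protein, was at 3.92, 2.01 and 3.05 CPM in male PGC and 0.895, 2.01 and 1.72 in female PGC. In soma it was at 148, 164 and 169 in males and 275, 260.3 and 222 in females. Its change was -4.32 ± 0.18 in males (53.4-fold lower, adjusted p = 4.31e-11) and -5.51 ± 0.18 in females (164-fold lower, adjusted p = 1.88e-11), the largest fall among the 37 genes in females on the read depth scale. Blcap, in whose intron Nnat lies on the opposite strand, was at 73.4, 62.8 and 70.1 CPM in male PGC and 69.6, 74.1 and 79.5 in female PGC. The soma levels were 55.7, 60.2 and 63 in males and 65.1, 70.4 and 64.1 in females. Blcap was called higher in male PGC (0.24 ± 0.07, adjusted p = 0.00497) and not in female PGC (0.12 ± 0.07, adjusted p = 0.121).

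Gnas (chr2:174284320-174346744), which codes for the alpha subunit of the stimulatory G protein and for other products of the same locus, was at 62.1, 70.6 and 59.4 CPM in male PGC and 255, 271 and 245 in female PGC. Soma held 1758, 1725 and 1814 in males and 1477, 1638 and 1253 in females. It was 27.6-fold lower in male PGC (-3.69 ± 0.07, adjusted p = 1.61e-13) and 5.66-fold lower in female PGC (-2.02 ± 0.07, adjusted p = 3.65e-11). The tables give 1 value for the locus, so its isoforms were not separated.

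Of the listed genes around Snrpn on chromosome 7, the 3 measured paternally expressed ones were lower in PGC at equal read depth. Ndn, a MAGE family gene, was at 36, 21.4 and 25.8 CPM in male PGC and 26, 33.3 and 31.9 in female PGC, against soma at 154, 136 and 143 in males and 146, 159.7 and 132 in females (-1.76 ± 0.12 in males and -1.75 ± 0.12 in females). Magel2 had 5, 0 and 5 reads in male PGC and 11, 8 and 4 in female PGC against 91, 238 and 254 in male soma and 98, 81 and 52 in female soma. Peg12 was at 5.16, 10.9 and 7.51 CPM in male PGC and 9.31, 5.73 and 8.13 in female PGC, against soma at 40.0, 51.9 and 40.0 in males and 29.2, 20.2 and 36.4 in females (-1.65 ± 0.19 and -1.25 ± 0.19). Ube3a, a ubiquitin ligase gene imprinted in neurons, was at 106, 121 and 118 CPM in male PGC and 168, 154 and 139.7 in female PGC. Soma libraries were at 101, 116 and 106 in males and 99.8, 106 and 107 in females. Ube3a was higher in female PGC than in female soma (0.44 ± 0.07, adjusted p = 6.37e-05) and called higher in male PGC than in male soma (0.17 ± 0.07, adjusted p = 0.0447). The male call was lost without male PGC library 2 or 3, male soma library 1 or 3, female PGC library 2 or female soma library 1 (adjusted p of 0.0502 to 0.135).

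Single genes of other loci also went both ways. Impact, a paternally expressed regulator of translational control, was lower in PGC of both sexes (-0.94 ± 0.12 and -1.68 ± 0.12), at 23.9 ± 5.04 CPM in male PGC and 14.5 ± 1.82 in female PGC against 62.1 ± 10.9 and 72 ± 3.35 in soma (mean ± SD, n = 3). Peg13, a noncoding RNA inside Trappc9, fell in both sexes (-3.30 ± 0.20 and -3.29 ± 0.20), from 41.2 ± 5.66 and 58.6 ± 10.9 CPM in soma to 1.23 ± 0.766 and 2.12 ± 0.718. Zrsr1, a retrogene related to a splicing factor, was at 29.1, 15.1 and 18.8 CPM in male PGC and 12.5, 14.1 and 9.85 in female PGC. In soma it was at 14.4, 17.1 and 16.7 in males and 18.3, 22.6 and 16 in females. It was not called in males (0.29 ± 0.15, adjusted p = 0.0858), and its call in females (-0.40 ± 0.15, adjusted p = 0.025) was lost without female PGC library 3 (adjusted p = 0.0985) or female soma library 2 (0.091) and turned to 0.07 (adjusted p = 0.67) under quantile normalization.

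Commd1, the copper metabolism gene whose intron holds Zrsr1, was at 54.5 ± 6.89 CPM in male PGC and 73.2 ± 6.08 in female PGC, against 35.2 ± 0.957 and 35.4 ± 3.01 in soma, and was called higher in both sexes (0.55 ± 0.09 and 0.78 ± 0.09). Inpp5f, a phosphoinositide phosphatase gene, was at 105, 91.1 and 124 CPM in male PGC and 109, 92.8 and 97.2 in female PGC. The soma levels were 23.5, 24.2 and 24.2 in males and 45, 64.6 and 43.9 in females. Sfmbt2 (chr2:10370510-10595253), a paternally expressed polycomb-associated gene needed in the placenta, was at 71.2, 47.2 and 62.3 CPM in male PGC and 38.5, 46.6 and 33.9 in female PGC. Soma held 8.52, 11.3 and 10.9 in males and 6, 6.44 and 7.5 in females. Both were higher in PGC with no overlap, Inpp5f by 1.71 ± 0.11 in males and 0.76 ± 0.11 in females and Sfmbt2 by 1.92 ± 0.13 and 1.76 ± 0.13. Among the 19 paternally expressed genes, Sfmbt2 was the only one called higher in PGC of both sexes.

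Female and male PGC differed at 23 of the 37 genes, while 65.2% of all genes differed, so the count is near the share of all genes. Between them 14 genes were higher and 9 lower in female PGC, against 32.8% and 32.5% of all genes. Of the 10 maternally expressed genes 5 were higher and 1 lower, of the 19 paternally expressed ones 4 were higher and 8 lower, and of the 8 others 5 were higher and none lower in female PGC. The largest differences were Phlda2 (4.34 ± 0.22, 95.5-fold, adjusted p = 2.5e-09), Plagl1 (2.68 ± 0.11, 15.4-fold, adjusted p = 5.87e-10) and Igf2 (2.65 ± 0.15, 13.9-fold, adjusted p = 5.53e-09), all higher in female PGC. On the other side Mest was 8.57-fold (-2.39 ± 0.18) and Usp29 6.62-fold (-1.73 ± 0.15) lower in female than in male PGC. In this comparison the call of Cdkn1c was lost without male PGC library 2 (adjusted p = 0.077) or female PGC library 2 (0.0678), and that of Rian without female PGC library 2 (0.0547). The call of Peg10 was lost without male PGC library 1 (0.17) or 3 (0.0999) or female PGC library 1 (0.179) or 3 (0.13), and that of Ube3a without male PGC library 1 (0.078) or female PGC library 1 (0.0902). The call of Commd1 was lost without any of 8 libraries (adjusted p of 0.0518 to 0.194), namely male PGC 1 or 3, any male soma, female PGC 1 or 2 and female soma 3. The calls of Meg3 (adjusted p = 0.105), Nnat (0.0518) and Rian (0.0762) were lost in the voom fit, and that of Commd1 with median centring (0.0769) and quantile normalization (0.0524).

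Female and male soma differed less, at 12 of 37 genes, 9 higher and 3 lower in females, against 13.3% and 11.0% of all genes. Asb4 had the largest difference, 5-fold lower in female soma (-1.77 ± 0.10, adjusted p = 2.8e-08), followed by Phlda2 (1.32 ± 0.22, from 3 to 24 reads a library, adjusted p = 0.000493, not called in the voom fit with 0.148) and Inpp5f (0.77 ± 0.11, adjusted p = 0.000162). Of these 12 calls, 7 were lost when 1 library was left out. They were Dlk1 (male soma 2 or 3, female soma 1 or 2, adjusted p of 0.0655 to 0.135), Gnas (male soma 1 or 3, female soma 3, 0.0573 to 0.0684), H19 (male soma 1 or 3, female soma 1 or 3, 0.0552 to 0.0651) and Igf2 (male soma 1 or female soma 1, 0.052 and 0.0544). The others were Kcnq1ot1 (male soma 1 or 2, female soma 1, 0.0891 to 0.0999), Nnat (any male soma, female soma 1 or 2, male PGC 3 or female PGC 3, 0.0521 to 0.143) and Sfmbt2 (male soma 2 or 3, female soma 1 or 2, male PGC 3 or female PGC 1, 0.0539 to 0.139). Asb4, Inpp5f and Rtl1 kept their calls in every fit that gave a value. Without female soma library 1 the count higher in females was 4, without male soma library 1 it was 5, and the count lower was 1 without male soma library 3 and 5 without female soma library 3.

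The step from soma to PGC itself differed between the sexes at 20 of 37 genes, 11 with a higher value in females and 9 with a lower one, against 27.9% and 28.9% of all genes. This count too is near the 56.8% of all genes whose step differed. Phlda2 had the largest such difference (3.02 ± 0.30, adjusted p = 2.73e-06, but 0.0679 in the voom fit), then Plagl1 (2.60 ± 0.15, adjusted p = 3.25e-08), Mest (-2.13 ± 0.25, adjusted p = 1.12e-05) and Igf2 (2.09 ± 0.21). For Plagl1, Igf2, Gnas (1.67 ± 0.10) and Grb10 (1.49 ± 0.24) the fall in female PGC was smaller than in male PGC. For Mest and Nnat (-1.19 ± 0.25, adjusted p = 0.00131) it was larger. Here the call of Kcnq1ot1 was lost without male PGC 1 or 2, male soma 3, female PGC 1 or 2 or female soma 3 (adjusted p of 0.0514 to 0.0748). That of Ube3a was lost without male PGC 1, male soma 2, female PGC 1 or 2 or female soma 1 (0.067 to 0.0989), and that of Peg3 without any single library other than male PGC 1, female PGC 3 or female soma 2 (0.0553 to 0.108).

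A second table gives log2 values per cell, scaled with spike-in RNA added by cell number. On that scale PGC had more RNA than soma for most genes: 64.0% of all genes were higher and 19.8% lower in male PGC, with a median of 1.42, and 77.2% were higher and 11.5% lower in female PGC, with a median of 2.36. Of the imprinted genes 10 were higher and 23 lower per male PGC, with a median of -1.89, and 13 were higher and 16 lower per female PGC, with a median of -0.10. With each library centred on its median the female split was 8 higher and 26 lower and the male split 10 and 27. Lower in both tables were 23 genes in males and 16 in females, against 19.7% and 11.5% of all genes. Those 16 were Airn, Dlk1, Grb10, H19, Igf2, Meg3, Mest, Mirg, Nnat, Peg10, Peg13, Plagl1, Rian, Rtl1, Sgce and Zim1. In male PGC, Igf2r, Impact, Kcnq1ot1 and Peg3 were lower at equal read depth but not called per cell. The same held in female PGC for Cdkn1c, Gnas, Impact, Magel2, Ndn, Peg12, Peg3 and Ppp1r9a.

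**Figure D4:**
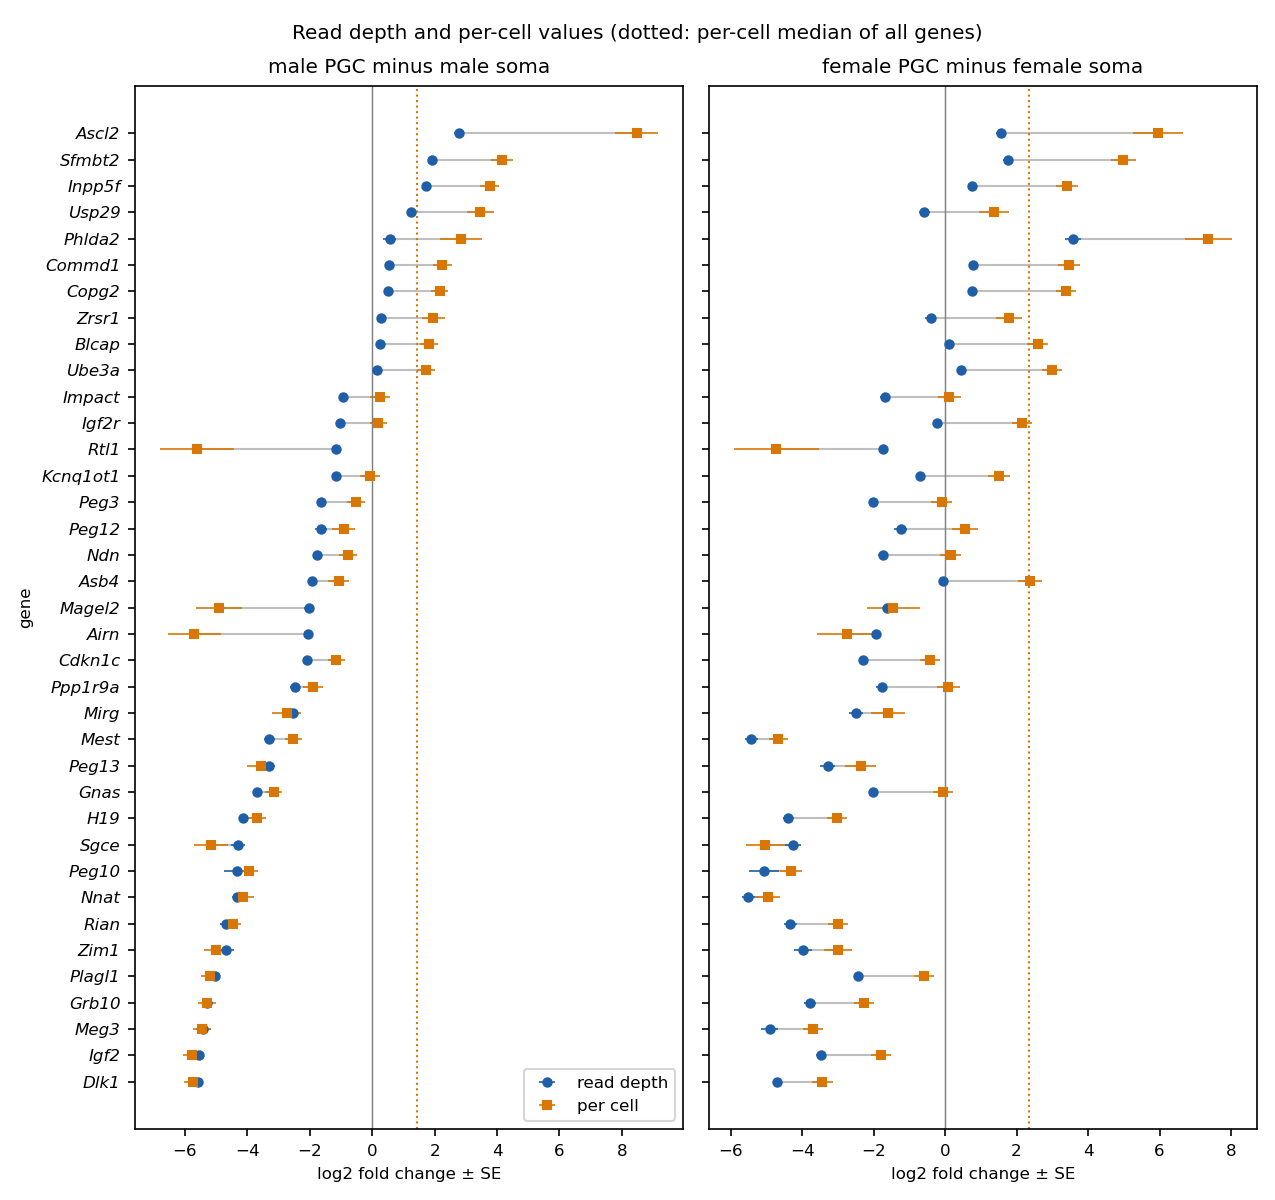
Log2 fold change of PGC against soma with 1 standard error for the 37 imprinted genes on the read depth scale (blue circles) and per cell (orange squares), in males (left) and females (right); dotted lines mark the per-cell median of all genes, 1.42 and 2.36. Most squares lie to the left of the dotted line, while Ascl2, Blcap, Commd1, Copg2, Inpp5f, Phlda2, Sfmbt2 and Ube3a lie to its right in both sexes.

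Per cell, Dlk1 (-5.74 ± 0.29 in males, -3.43 ± 0.29 in females), Meg3 (-5.45 ± 0.28 and -3.68 ± 0.28) and Nnat (-4.15 ± 0.35 and -4.96 ± 0.35) were lower in PGC of both sexes in log2 units. Igf2 fell by much more in males (-5.79 ± 0.28) than in females (-1.79 ± 0.28), with a difference of 4.00 ± 0.40 (adjusted p = 8.73e-22). Plagl1 was at -5.20 ± 0.29 in males and -0.59 ± 0.29 in females (adjusted p = 0.0464), and Gnas at -3.16 ± 0.28 and -0.07 ± 0.28 (adjusted p = 0.828), which was no call in females. In females, Igf2r (2.15 ± 0.28), Kcnq1ot1 (1.50 ± 0.31), Usp29 (1.37 ± 0.43) and Zrsr1 (1.79 ± 0.37) were higher per PGC although lower at equal read depth. For each of these 4 the per-cell value lay under the median of all genes.

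The per-cell step differed between the sexes at 23 genes, 20 with a higher value in females and 3 with a lower one, against 42.8% and 5.16% of all genes, whose median difference was 0.906. With each library centred on its median the split was 10 and 8. The libraries of male soma were uneven on this scale: the median over genes was 5.25 in library 3 and 4.33 and 4.29 in the others, and without library 3 the count lower in females was 5. The spread of that group enters every per-cell fold against male soma. An error in the spike-in scale of a library is shared by all its genes, so per-cell p-values, which pool the spread over genes, can be too small.

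Marker genes of soma cell types were summed in the sorted PGC libraries, as a guide to soma RNA. Not every listed marker is restricted to soma, so the sums do not measure soma RNA alone. In male PGC the pregranulosa marker Rspo1 was higher per cell than in male soma (1.8 ± 0.36, limma adjusted p = 1.325e-06). The median of all genes was 1.42 there, and Bmp2 of the same marker list was lower (-3.91 ± 0.45). The 8 stromal markers summed to 0.192%, 0.101% and 0.525% of the male soma level in male PGC libraries 1 to 3 and to 0.121%, 0.359% and 0.0852% of the female soma level in female PGC, with no marker at 0 reads over a group. Erythroid markers (6 of 7 listed with a row) were at 0.0801% to 0.185% in male PGC and 0.0117% to 0.0238% in female PGC, and endothelial markers at 3.13% to 5.29% and 1.61% to 3.45%. Sertoli markers were at 7.20% to 16.6% of male soma in male PGC, and pregranulosa markers at 8.49% to 12.9% of female soma in female PGC. Coelomic epithelium markers (4 of 5) were at 2.23% to 3.24% and 0.406% to 3.23%, fetal Leydig markers at 0.153% to 0.269% in male PGC and 3.86% to 11.7% in female PGC, and macrophage markers (5 of 6) at 0% to 0.829% and 0.779% to 2.37%. Over a group, 1 macrophage marker (Fcgr1) had no read in male PGC, and 1 Sertoli marker (Cst9) and 2 erythroid markers, Hbb-bh1 among them, had none in female PGC. Their part in the levels of the imprinted genes was not tested.

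Set beside these markers, 8 imprinted genes in male PGC had a mean of 3 libraries under 1% of their soma level (Igf2, Airn, Dlk1, Meg3, Rtl1, Sgce, Plagl1 and Grb10). In female PGC 4 did (Rtl1, Sgce, Mest and Nnat). Igf2 in male PGC was at 0.613%, 0.370% and 0.876% of soma in libraries 1 to 3. By their means, only Airn and Rtl1 in male PGC were at or below the highest stromal value of a PGC library of the same sex. No gene was in female PGC. Single libraries of other genes also lay under that value. Examples were Igf2 (0.370%), Dlk1 (0.488%) and Sgce (0.389%) in male PGC library 2, against 0.525%. Another was Nnat (0.355%) in female PGC library 1, against 0.359%. Other marker lists lay on both sides of the stromal one. In male PGC endothelial markers reached 5.29% and Sertoli markers 16.6%, while fetal Leydig and erythroid markers reached 0.269% and 0.185%. In female PGC only the erythroid list had a lower highest value than the stromal list. Under 10% of the soma level by the same means were 19 of 37 genes in male PGC and 16 in female PGC, and 10 and 8 were above their soma level. The shares of all genes at these percents are not given here. These counts therefore do not show whether imprinted genes differ from other genes in this.

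**Figure D5:**
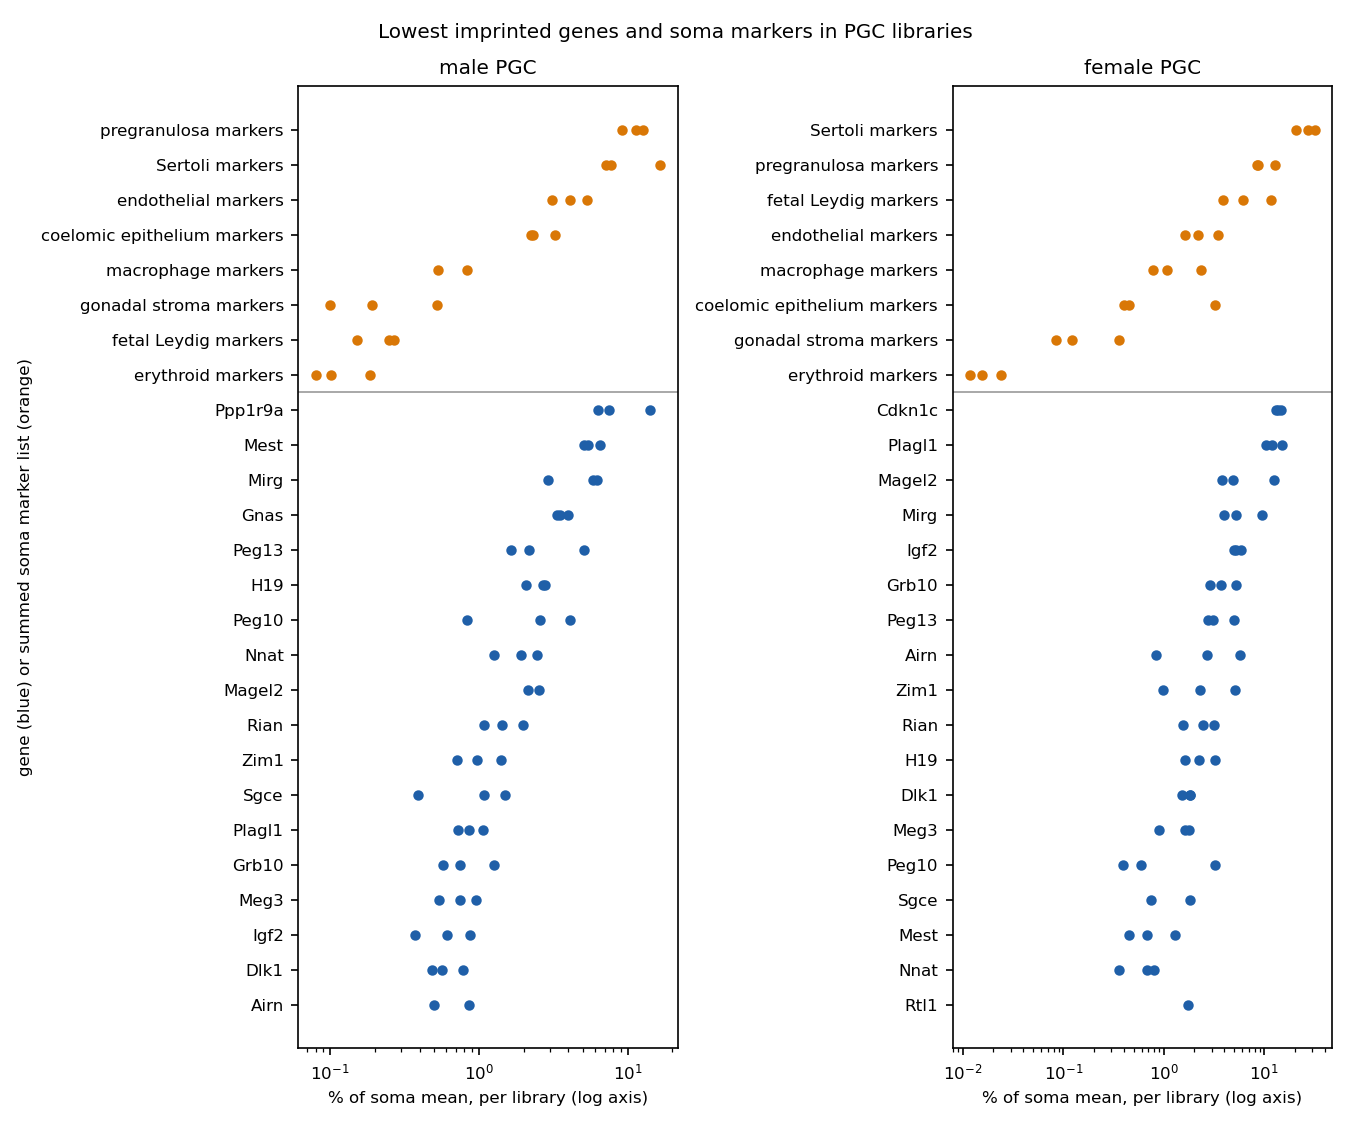
Level in each of the 3 PGC libraries as a percent of the mean of same-sex soma (log axis) for the lowest imprinted genes (blue) and for summed lists of soma markers (orange), males left and females right; values of 0 are not drawn, so Rtl1 is absent in males. Stromal, erythroid and male Leydig markers lie under 1%, in or below the range of the lowest imprinted genes. Sertoli and pregranulosa markers lie above 1%, as do some of the imprinted genes.

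Further genes reported as imprinted in mouse, 38 of 57 listed with a row, showed a smaller shift. In males 9 were higher and 20 lower in PGC with a median of -0.472, and in females 9 and 21 with a median of -0.528. Of all genes 43.7% were lower and 39.1% higher in males, and 42.3% and 38.7% in females, with medians of -0.0606 and -0.0494. Nap1l4, a nucleosome assembly gene next to Phlda2, was at 339 ± 15.3 CPM in male PGC and 292 ± 8.38 in female PGC against 199.7 ± 5.21 and 202 ± 9.13 in soma (mean ± SD, n = 3). Cd81, a tetraspanin gene, was lower in PGC (-3.12 ± 0.08 and -2.23 ± 0.08). Dcn, a matrix proteoglycan gene that is also a stromal marker here, had the largest fall (-6.38 ± 0.39 and -6.97 ± 0.39), and the log2 fold change of Osbpl5 was -3.79 ± 0.15 in males and -2.28 ± 0.15 in females. Slc22a18, a transporter gene beside Phlda2, was picked after its values were seen. It was at 24.7, 24.8 and 26 CPM in female PGC, 3.11, 1.85 and 1.98 in male PGC and 2.22, 3.38 and 0.763 in female soma. Per cell, Slc22a18 was also higher in male PGC than in male soma (5.345 ± 0.68, limma adjusted p = 1.305e-14). The median of all genes was 1.42 there.

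Of 18 measured genes whose proteins write, keep or remove methylation at imprints, 9 were higher and 8 lower in male PGC and 8 higher and 8 lower in female PGC. Of all genes 39.1% were higher and 43.7% lower in males, and 38.7% and 42.3% in females, so the counts of lower genes are near those shares. Trim28, the corepressor that ZFP57 recruits, was at 1627 ± 107 CPM in male PGC and 896 ± 86.9 in female PGC against 681 ± 9.81 and 673 ± 64.9 in soma. Hells, a chromatin remodeller that aids DNA methylation, rose by 2.73 ± 0.13 and 2.84 ± 0.13. Dppa3, a germ cell protein that protects imprints in the early embryo and also a germ cell marker here, rose by 7.33 ± 0.35 and 4.45 ± 0.35. Zfp57 itself was at 1.15, 2.05 and 0.452 CPM in male PGC and 3.98, 4.18 and 4.68 in female PGC against 85, 118 and 124 and 141, 116 and 108 in soma, log2 fold changes of -4.62 ± 0.21 and -3.63 ± 0.21.

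Partners of the IGF pathway were mostly lower in PGC at equal read depth, 15 of 19 measured genes in each sex. There were 3 higher in males and 2 in females, with medians of -2.33 and -1.81. Of all genes 43.7% and 42.3% were lower and 39.1% and 38.7% higher. The binding proteins Igfbp5 (-5.80 ± 0.30 and -6.59 ± 0.30) and Igfbp4 (-5.76 ± 0.16 and -4.99 ± 0.16) and the ligand Igf1 (-5.42 ± 0.32 and -5.76 ± 0.32) had the largest falls. Igf1 was at 0.574, 0.246 and 0.452 CPM in male PGC and 0.358, 2.32 and 0.287 in female PGC against 98.8, 80.0 and 112 and 146, 225 and 157 in soma, and female PGC library 2, the highest of its group, also held the most stromal markers of that group, whose part in its Igf1 level was not tested.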

How the data were processed

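The deposited values are log2 expression in 2 tables, 1 normalized to read depth and 1, named by an abbreviation read here as cell number normalized, scaled with spike-in RNA that was added per cell, per the labels' protocols. Trim Galore 0.4.0, TopHat2 2.0.9, HTSeq 0.6.1p1, DESeq2 1.12.3, edgeR 3.14.0 and limma 3.28.14 are named with build mm10 in the submitters' processing notes, without role. The transform of the read depth table, the annotation, the gene filter and the use of strand in counting are steps not given in the sources used here. Libraries came from a directional kit, per the labels' protocols.

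Each value of the cell number table was inverted to reads. In every library 100% of values came out whole within 0.001 reads after removal of an offset of 0.5, and CPM was computed from these reads. The read depth scale moved by 0.482 per log2 CPM for genes under 100 mean reads and by 0.733 for those with 100 to 10000. Replicate libraries differed by more than sampling noise.

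Both tables were fitted with limma 3.58.1 in R 4.3.3 (4 group means over all 12 libraries, intensity trend, Benjamini-Hochberg over 12845 genes, called at 0.05), after a check on simulated data. Alternatives were limma voom on the recovered reads, median centring, quantile normalization, the lowest 25% of genes left out, no trend, array weights, a replicate block and each library left out, plus 2 pairs of libraries left out that were chosen after seeing the data. No sample was left out otherwise. The result of a single marker gene is not reported here. The members, the other gene lists and the rule for naming genes were chosen with earlier results of these data known. By that rule every member with a row is named, with values in every library for the 6 largest changes of PGC against soma in each sex, the 4 largest differences between sexes, the 3 largest in each comparison between sexes, and their partners at the same locus. Of each other list, the 2 highest and the 2 most changed genes are named. Positions are from GENCODE vM21 (GRCm38).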

Additional observations from a re-analysis of the deposited data

Results flagged for a closer look

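The step from soma to PGC differed between the sexes at 20 imprinted genes (limma on the read depth table, test of the difference itself), that is 20 of 37, while it differed at 56.8% of all genes. As female minus male log2 values, the genes whose step was higher in females were Phlda2 (3.02), Plagl1 (2.60), Igf2 (2.09), Asb4 (1.88), Gnas (1.67), Grb10 (1.49), Dlk1 (0.87), Igf2r (0.81), Ppp1r9a (0.71), Kcnq1ot1 (0.45) and Ube3a (0.27). Those whose step was lower in females were Mest (-2.13), Usp29 (-1.82), Ascl2 (-1.20), Nnat (-1.19), Inpp5f (-0.95), Impact (-0.75), Zrsr1 (-0.70), Rtl1 (-0.59) and Peg3 (-0.39). For 9 of the 20 the soma of the sexes differed as well: Asb4 (-1.77 ± 0.10), Phlda2 (1.32 ± 0.22), Inpp5f (0.77 ± 0.11), Rtl1 (0.63 ± 0.12), Igf2 (0.56 ± 0.15), Nnat (0.53 ± 0.18), Kcnq1ot1 (0.38 ± 0.11), Dlk1 (0.38 ± 0.12) and Gnas (-0.26 ± 0.07). Of all genes 24.4% differed between the soma of the sexes. The step is measured against soma, so a soma difference enters it by construction. The soma calls of Dlk1, Gnas, Igf2, Kcnq1ot1 and Nnat were lost with 1 library left out, and that of Phlda2 in the voom fit. Rtl1 had at most 1 read in a PGC library, and its step value was -0.08 (adjusted p = 0.959) in the voom fit. The call was also lost for Phlda2 in the voom fit (adjusted p = 0.0679), for Kcnq1ot1 (0.207), Peg3 (0.0824) and Rtl1 (0.0891) under quantile normalization and for Ube3a (0.0709) with median centring. For Usp29 and Plagl1 the soma libraries of the sexes overlapped.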

How the results depend on the processing

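At equal read depth, the counts of imprinted genes that were lower in PGC stayed at 27 in males and between 26 and 28 in females in every fit made on all genes with all or fewer libraries. Of 36 calls in males 34, and of 35 in females 32, held in every fit that gave a value. For female against male soma, leaving out 1 library at a time gave 4 to 9 genes higher and 1 to 5 lower, leaving out female soma libraries 1 and 2 gave 4 higher, and leaving out male soma library 3 with female PGC library 2 gave 1 lower. Per cell, female PGC against soma had 8 higher and 26 lower under both median centring and quantile normalization, and 10 lower without the lowest 25% of genes. The per-cell difference between sexes had 10 higher under both scalings and 13 without female soma libraries 1 and 2. It had 8 lower under median centring, 7 under quantile normalization, 1 without the lowest 25% of genes, 6 with array weights and 2 to 5 with 1 library left out. Under quantile normalization the female values of Usp29 (0.12, adjusted p = 0.496) and Zrsr1 (0.066, adjusted p = 0.67) changed sign. The 2 scalings set the median library levels equal, and otherwise the cause was not tested. Same-numbered libraries were treated as unpaired in the main fits. The correlation of their deviations ran from -0.361 to 0.0715 over 18 pairs, and no library correlated best with its own number. Weak correlations cannot exclude that libraries of the same number came from the same sort. With a replicate block 8 genes were higher and 27 lower in male PGC, and 7 and 28 in female PGC; the block ended the calls of Ube3a in males (adjusted p = 0.0529), of Peg10 between PGC (0.0535), and of Nnat (0.0744) and Sfmbt2 (0.067) between soma. Genes with few reads in PGC, such as Rtl1, Airn, Magel2 and Phlda2 in males, limit the precision of their folds.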
